A study of Homo sapiens with 40 samples.

Results

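HepaRG cells exposed to PCB 126 at 1 µM were set against cells from the same series that had received a herbicide instead. The comparison took the 5 libraries labelled PCB_1uM and the 20 libraries labelled Glyphosate_10ug/L, Glyphosate_1mg/L, Glyphosate_0.1g/L or Roundup_10ug/L, with 5 libraries in each of the 4 herbicide groups, so that 25 of the 40 RNA-seq libraries of the series were compared. Libraries were taken by their labels only. The 20 herbicide libraries gave a reference for PCB 126 that used none of the 5 solvent controls.

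All cells were differentiated HepaRG cells (HPR 116), a commercial human hepatic line, kept from day 8 to day 14 in a test medium with 2% fetal bovine serum and 1% DMSO. The PCB_1uM group received PCB 126 at 1 µM, and the others received glyphosate at 10 µg/L, 1 mg/L or 0.1 g/L, or Roundup, a formulated herbicide based on glyphosate, at 10 µg/L. Solvent controls (Control) and PCB 126 at 10 nM (PCB_10nM) are used below as separate references. RNA was depleted of ribosomal RNA before directional libraries were made. No label says that the 5 libraries of a group came from separate cultures, so the p-values measure the spread between these libraries, which may be technical. One cell line stands behind every library.

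PCB 126, a coplanar and dioxin-like polychlorinated biphenyl, is a strong ligand of the aryl hydrocarbon receptor (AhR), a transcription factor held in the cytoplasm by HSP90 and its co-chaperones. On ligand binding the AhR moves to the nucleus, pairs with ARNT and binds DNA elements with the core GCGTG, and in liver this switches on cytochromes P450 of family 1 together with other enzymes of foreign-compound metabolism. TIPARP and AHRR, which are themselves targets, limit the receptor's activity. Glyphosate blocks a plant and microbial enzyme of aromatic amino acid synthesis that animal cells do not have. Differentiated HepaRG cultures hold hepatocyte-like cells beside primitive biliary cells.

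Values were in FPKM (fragments mapped to a transcript, scaled to its length and to the mapped fragments of the library), which the deposited files give per transcript and which were summed here per gene name. In bulk RNA of this kind, fewer cells of a type and less RNA per cell cannot be told apart. The summed FPKM of a library ran from 304195 to 449515 in the PCB 126 libraries and from 255292 to 513059 in the herbicide libraries. Transcripts above 0 numbered 75785 to 110625 and 90856 to 118592, and the lowest of these counts belonged to PCB_1uM replicate 1. The number of reads behind an FPKM value is not in these files, so no counting interval is given.

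The hepatic label was checked against marker genes. All 12 hepatocyte markers passed the filter on variance (a variance of FPKM above 1 over the 25 libraries). TAT, at 0.237 to 1.12 FPKM in the herbicide libraries, passed only through its PCB 126 values. The summed level of the 12 was 4968 to 13447 FPKM in the PCB 126 libraries and 10682 to 24814 FPKM in the herbicide libraries. Of 11 biliary and progenitor markers 4 passed the filter, with a summed level of 165 to 285 against 233 to 591 FPKM. EPCAM was listed at 0 in every PCB 126 library and did not exceed 0.0387 FPKM in any of the 25 libraries. Stellate cell and fibroblast markers passed in 7 of 11 cases, with 51.0 to 197 against 40.7 to 131 FPKM. COL1A2 was at 0 in every PCB 126 library and did not exceed 0.0261 FPKM in any of the 25 libraries. Blood and macrophage markers passed in 2 of 7 cases, with 5.59 to 10.5 against 3.55 to 17.3 FPKM and CD3E at 0 in all 25 libraries. None of 7 endothelial markers passed, with 0.625 to 1.51 against 0.988 to 3.29 FPKM and CLEC4G at 0 in all 25 libraries. The part that a shift between hepatocyte-like, biliary and fibroblast-like cells could have in the results was not tested.

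The largest increases among called genes included several of the AhR pathway. CYP1A1, CYP1A2, SERPINB2, SLC37A2 and STC2 rose most, and APOA2, an apolipoprotein of high-density lipoprotein, and COL3A1, a fibrillar collagen chain, fell most. Of 9739 genes tested, 799 passed (limma, Benjamini-Hochberg adjusted p under 0.05), which is 8.2% of the genes, with 153 higher (1.57%) and 646 lower (6.63%) in the PCB 126 libraries. Calls were counted in a fit that gives each herbicide group its own mean and weighs the 4 means equally. Over all genes tested the median log2 fold change was -0.23 on the log2(FPKM + 1) scale, and medians of gene lists are given beside it. Counts of calls in gene lists are to be read beside the shares of 1.57% and 6.63%. Fold changes on this scale understate the change of genes with low values.

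In 140 of the called genes (1.44% of the genes tested) the 5 PCB 126 values and the 20 herbicide values did not overlap. These were 58 higher genes (0.596%) and 82 lower genes (0.842%). The number of lower genes rested on particular libraries. Without PCB_1uM replicate 1 the fit called 164 genes higher (1.72% of the genes tested) and 259 lower (2.71%). Without PCB_1uM replicate 5 it called 332 lower, and without Glyphosate_10ug/L replicate 5 it called 1009 lower. Of the 153 higher genes 147 were still tested without PCB_1uM replicate 1 and 123 were still called, while 258 of the 646 lower genes were. Quantile normalization of the libraries moved the median of all genes to -0.01 and the split of calls to 1079 higher and 1378 lower, and a plain linear model with library size as a covariate gave 1197 higher and 921 lower, whereas higher genes were 19.15% of the 799 calls given here. All 153 higher and 595 of the 646 lower genes were still called after quantile normalization, and none changed sign. A further alternative left out the 6 of 25 libraries in which the study's alignment summary lists the largest shares of read pairs aligned more than once, namely PCB_1uM replicates 1 and 5, Glyphosate_0.1g/L replicate 2, Glyphosate_10ug/L replicate 5 and Roundup_10ug/L replicates 4 and 5; they are called the 6 multiply aligned libraries.

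**Figure D1:**
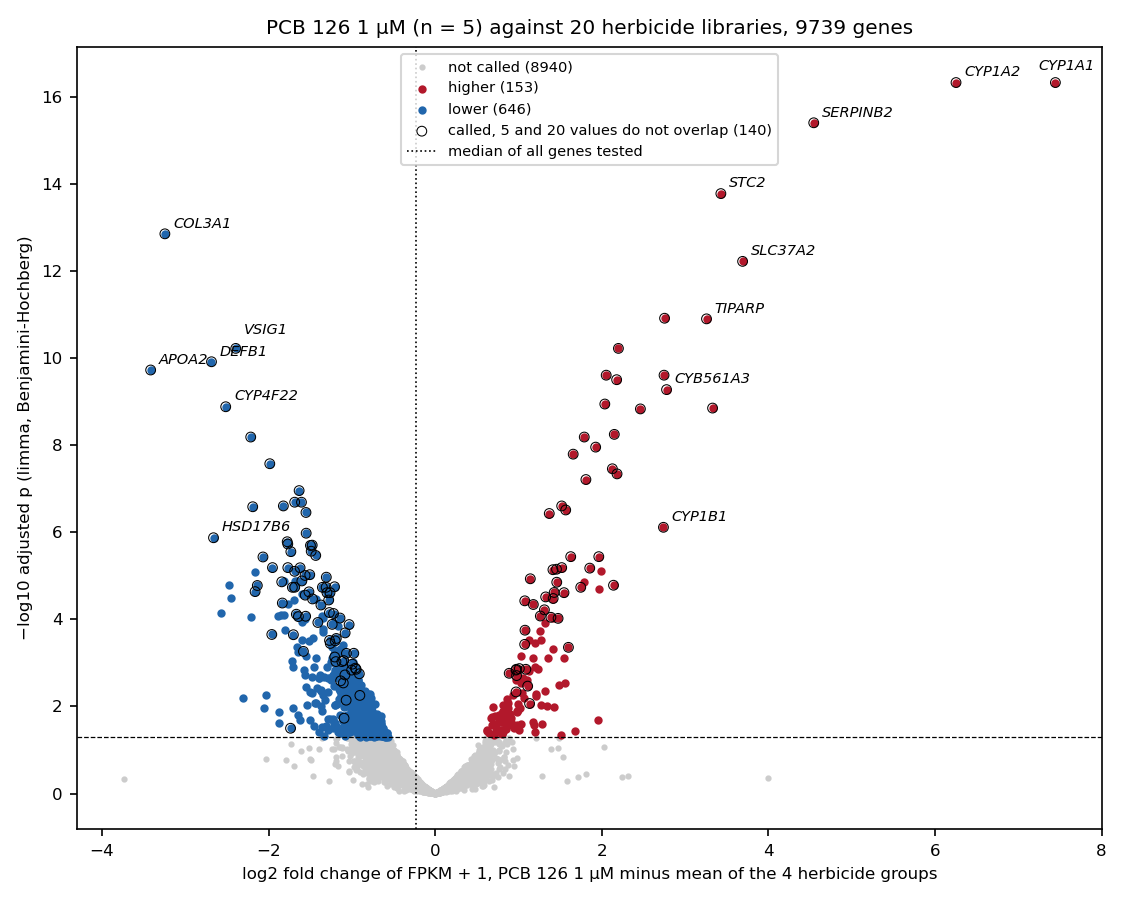
Log2 fold change on the log2(FPKM + 1) scale (x axis, PCB 126 1 µM minus the mean of the 4 herbicide groups) against -log10 of the adjusted p (y axis) for 9739 genes. Red points are the 153 genes called higher, blue points the 646 called lower, and black rings mark the 140 whose 5 and 20 values do not overlap. CYP1A1 and CYP1A2 lie furthest to the right, at 7.45 and 6.25.

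The AhR genes are best read from their values. CYP1A1, the cytochrome P450 most used as a marker of AhR activation (GRCh38 chr15:74719542-74725610, minus strand), stood at 85.2, 251, 214, 389 and 234 FPKM in PCB_1uM replicates 1 to 5. Of the 20 herbicide libraries 11 listed it at 0, and the highest value among them was 6.48 FPKM. Every PCB 126 library was far above every herbicide library. The highest herbicide values were 6.48 and 2.42 FPKM, in replicates 3 and 5 of the 0.1 g/L glyphosate group. The mean of that group, 1.83 FPKM against 0.00816 to 0.0668 FPKM in the other 3 groups, rested on these 2 libraries. It was below the mean of the solvent controls, 2.33 FPKM. The log2 fold change was 7.45 ± 0.31 (SE, adjusted p = 4.76e-17). Against single herbicide groups it ran from 6.73 to 7.72.

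CYP1A2, its neighbour on chromosome 15 (chr15:74748844-74756202, plus strand), which oxidizes caffeine and aromatic amines in liver, gave 47.1, 168, 154, 259.8 and 142 FPKM. Herbicide libraries held between 0.203 and 2.10 FPKM with a median of 0.835. The groups lay far apart, and PCB_1uM replicate 1 was the lowest of the 5 for both genes. The log2 fold change was 6.25 ± 0.26 (SE, adjusted p = 4.76e-17), with a mean of 154 ± 75.8 FPKM (SD, n = 5) against 0.848 ± 0.505 FPKM (SD, n = 20).

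CYP1B1, the extrahepatic member of the family, which oxidizes estrogens (chr2:38066973-38109902, minus strand), had the widest spread of the 3. Its levels in replicates 1 to 5 were 168, 59.6, 52.0, 227 and 27.9 FPKM, against 6.00, 12.3 and 24.5 FPKM as lowest, median and highest herbicide value. The order of the replicates was not that of CYP1A1, since replicate 1 was high here, but the groups did not overlap and the log2 fold change was 2.74 ± 0.33 (SE, adjusted p = 7.72e-07). CYP1B1-AS1, an antisense RNA annotated over the same stretch (chr2:38073447-38231651, plus strand), stood at 9.63 to 21.3 FPKM in the PCB 126 libraries and 0.753 to 2.41 in the herbicide libraries (log2 fold change 2.75 ± 0.19, adjusted p = 1.22e-11). The strand setting of the counting is not given in the sources used here, so reads of the pair cannot be told apart with certainty.

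Windows around gene starts are shown for 4 genes that rose, whose windows hold the core of the AhR element in different numbers or not at all: both CYP1A genes, the feedback regulator TIPARP and STC2, a secreted glycoprotein that was not on the AhR list. Each window runs from 250 bases before to 50 bases after the annotated start (RefSeq, GRCh38.p14), written 5′ to 3′ on the strand of the gene, and capitals mark GCGTG or its reverse complement CACGC.
CYP1A1, chr15:74725479-74725778, minus strand: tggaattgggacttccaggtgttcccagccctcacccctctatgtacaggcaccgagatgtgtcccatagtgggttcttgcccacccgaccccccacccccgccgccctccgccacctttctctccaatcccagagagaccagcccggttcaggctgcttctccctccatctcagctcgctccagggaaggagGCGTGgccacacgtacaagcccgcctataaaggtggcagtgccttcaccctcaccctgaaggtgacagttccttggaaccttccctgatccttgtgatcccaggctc
CYP1A2, chr15:74748595-74748894, plus strand: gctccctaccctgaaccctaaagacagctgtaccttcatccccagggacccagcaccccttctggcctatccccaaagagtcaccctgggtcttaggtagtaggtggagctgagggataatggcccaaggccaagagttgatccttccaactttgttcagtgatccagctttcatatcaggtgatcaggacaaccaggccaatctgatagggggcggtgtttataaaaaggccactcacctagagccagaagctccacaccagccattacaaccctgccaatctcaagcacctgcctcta
TIPARP, chr3:156674340-156674639, plus strand: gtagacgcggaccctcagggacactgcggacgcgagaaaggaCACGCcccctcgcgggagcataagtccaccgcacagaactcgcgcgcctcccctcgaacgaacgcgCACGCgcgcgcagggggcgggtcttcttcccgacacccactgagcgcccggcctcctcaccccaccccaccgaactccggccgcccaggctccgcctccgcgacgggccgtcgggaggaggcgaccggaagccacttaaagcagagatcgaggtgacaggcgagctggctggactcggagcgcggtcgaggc
STC2, chr5:173328365-173328664, minus strand: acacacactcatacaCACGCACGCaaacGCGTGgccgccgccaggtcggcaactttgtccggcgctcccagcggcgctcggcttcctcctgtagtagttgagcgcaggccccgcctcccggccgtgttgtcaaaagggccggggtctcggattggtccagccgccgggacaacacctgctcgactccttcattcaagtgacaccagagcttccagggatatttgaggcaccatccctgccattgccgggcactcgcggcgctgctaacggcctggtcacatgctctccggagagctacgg
The CYP1A1 window held 1 core, 57 bases before the start, the printed TIPARP window held 2, the other 2 TIPARP windows of the table held 0, and the STC2 window 3 on both strands, with 2 of them sharing a base. None lay in the CYP1A2 window, which says only that these letters are not in this stretch. The core was in 36.5% of all 35116 windows of the table. Counting genes with 1 window only, it was in 50.7% of 73 genes called higher, in 42.9% of 303 called lower and in 52.9% of all 5063 genes tested that had such a window, so its share in genes called higher was near that of all genes. CYP1B1 and ALDH3A1 had no window in the table.

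TIPARP (chr3:156673235-156706770, plus strand), the ADP-ribosyltransferase that marks the AhR for turnover, stood at 20.9, 73.6, 68.3, 62.4 and 41.4 FPKM. Its herbicide values lay between 2.02 and 5.58 FPKM with a median of 4.70. The lowest PCB 126 library was above every herbicide library (log2 fold change 3.26 ± 0.23, adjusted p = 1.27e-11). AHRR, the AhR repressor, did not pass the variance filter: it was listed at 1.63, 2.60, 5.28, 1.20 and 1.24 FPKM, against 0.827 to 3.41 FPKM, and its difference of 0.24 on the log2 scale gave p = 0.279 (2-sided exact permutation test, unadjusted). The 2 feedback genes of the list therefore gave different readings in these libraries.

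SERPINB2, the plasminogen activator inhibitor of monocytes and keratinocytes (chr18:63871692-63903890, plus strand), rose from very low levels. It was at 19.4, 61.0, 54.2, 39.6 and 22.8 FPKM with PCB 126, and no herbicide library exceeded 1.42 FPKM (median 0.59). The mean was 65.3 times higher, and the log2 fold change was 4.54 ± 0.21 (SE, adjusted p = 3.99e-16).

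Both aldehyde dehydrogenases of the list rose. ALDH3A1, which oxidizes aromatic and lipid aldehydes, was the most abundant called gene of the list, at 387, 469, 436, 575 and 365 FPKM against 45.3 to 153 FPKM with a median of 106. The replicates agreed closely for this gene, and PCB_1uM replicate 1 was not set apart (log2 fold change 2.13 ± 0.22, adjusted p = 3.5e-08). ALDH1A3, a retinaldehyde dehydrogenase, ran from 4.34 to 7.78 FPKM against 0.201 to 1.28 FPKM (log2 fold change 2.18 ± 0.18, adjusted p = 3.15e-10).

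Among the glucuronidating enzymes UGT1A1, which conjugates bilirubin, was at 111, 283, 261, 375 and 183 FPKM against 23.7, 52.8 and 122 FPKM as lowest, median and highest. It rose by 1.99 ± 0.27 on the log2 scale (adjusted p = 7.91e-06), and 4 of 5 PCB 126 libraries lay above all herbicide libraries. The herbicide groups were uneven for this gene, from 40.8 ± 14.0 FPKM with Roundup to 81.9 ± 31.3 FPKM with glyphosate at 0.1 g/L (SD, n = 5 each), without passing the F-test after adjustment. UGT1A6, annotated from chr2:233691607 to chr2:233773300 and sharing its last exons with UGT1A1, did not pass (log2 fold change 0.24 ± 0.29, adjusted p = 0.645), and its sign turned to -0.29 without the 6 multiply aligned libraries and to -0.076 when the most abundant transcript replaced the sum. Exons shared within the UGT1A locus make the split of FPKM between these 2 genes uncertain. UGT1A3 failed the variance filter at 1.47 to 4.44 against 0.803 to 2.54 FPKM (difference 0.70 on the log2 scale, exact permutation p = 0.000753, unadjusted).

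GSTA1, a glutathione transferase, was the 1 member that fell, by 0.94 ± 0.27 on the log2 scale (adjusted p = 0.0261). Its PCB 126 values were 63.9, 283, 274, 440.3 and 235 FPKM, against 221 to 586 FPKM, and only replicate 1 lay below the whole herbicide range. The call was lost without PCB_1uM replicate 1 (-0.49, adjusted p = 0.271), without replicate 5 (adjusted p = 0.0591), without the Glyphosate_1mg/L group (adjusted p = 0.121), without a filter (adjusted p = 0.0872) and in the plain linear model (adjusted p = 0.0501). NFE2L2, the transcription factor of the antioxidant response, was below every herbicide library in PCB_1uM replicate 1 and stood at 35.0 to 56.3 FPKM in the other 4, against 16.2 to 38.6 FPKM, and did not pass (log2 fold change 0.26 ± 0.26, adjusted p = 0.563). It passed as higher after quantile normalization (0.41, adjusted p = 0.0426), with array weights and without the 6 multiply aligned libraries (0.66).

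Of the 17 AhR-induced genes 11 were tested, 8 rose and 1 fell, where 1.57% of all genes rose. The median log2 fold change of the tested members was 2.18, beside -0.23 for all genes. The same 8 remained called without each library in turn, without the 6 multiply aligned libraries and under both other scalings of the libraries. Those that failed the variance filter besides AHRR and UGT1A3 were NQO1 (1.07 to 2.61 FPKM with PCB 126), CYP2S1 (0.501 to 0.872), XDH (0.677 to 1.85) and SLC7A5 (0.42 to 1.27), with exact permutation p of 0.84, 0.0808, 0.63 and 0.0358, unadjusted. The members that failed differed by -0.14 (CYP2S1) to 0.70 (UGT1A3) on the log2 scale. The filter included the PCB 126 libraries, so CYP1A2, SERPINB2 and ALDH1A3 passed only through their PCB 126 values (herbicide SD 0.505, 0.302 and 0.297 FPKM). The median of 2.18 is raised by this filter. For CYP1A1, CYP1A2, CYP1B1, TIPARP, SERPINB2, ALDH3A1 and ALDH1A3 the 2-sided exact permutation test over all 53130 splits into 5 and 20 libraries gave p = 3.76e-05, the smallest it can give, and for UGT1A1 it gave p = 7.53e-05.

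**Figure D2:**
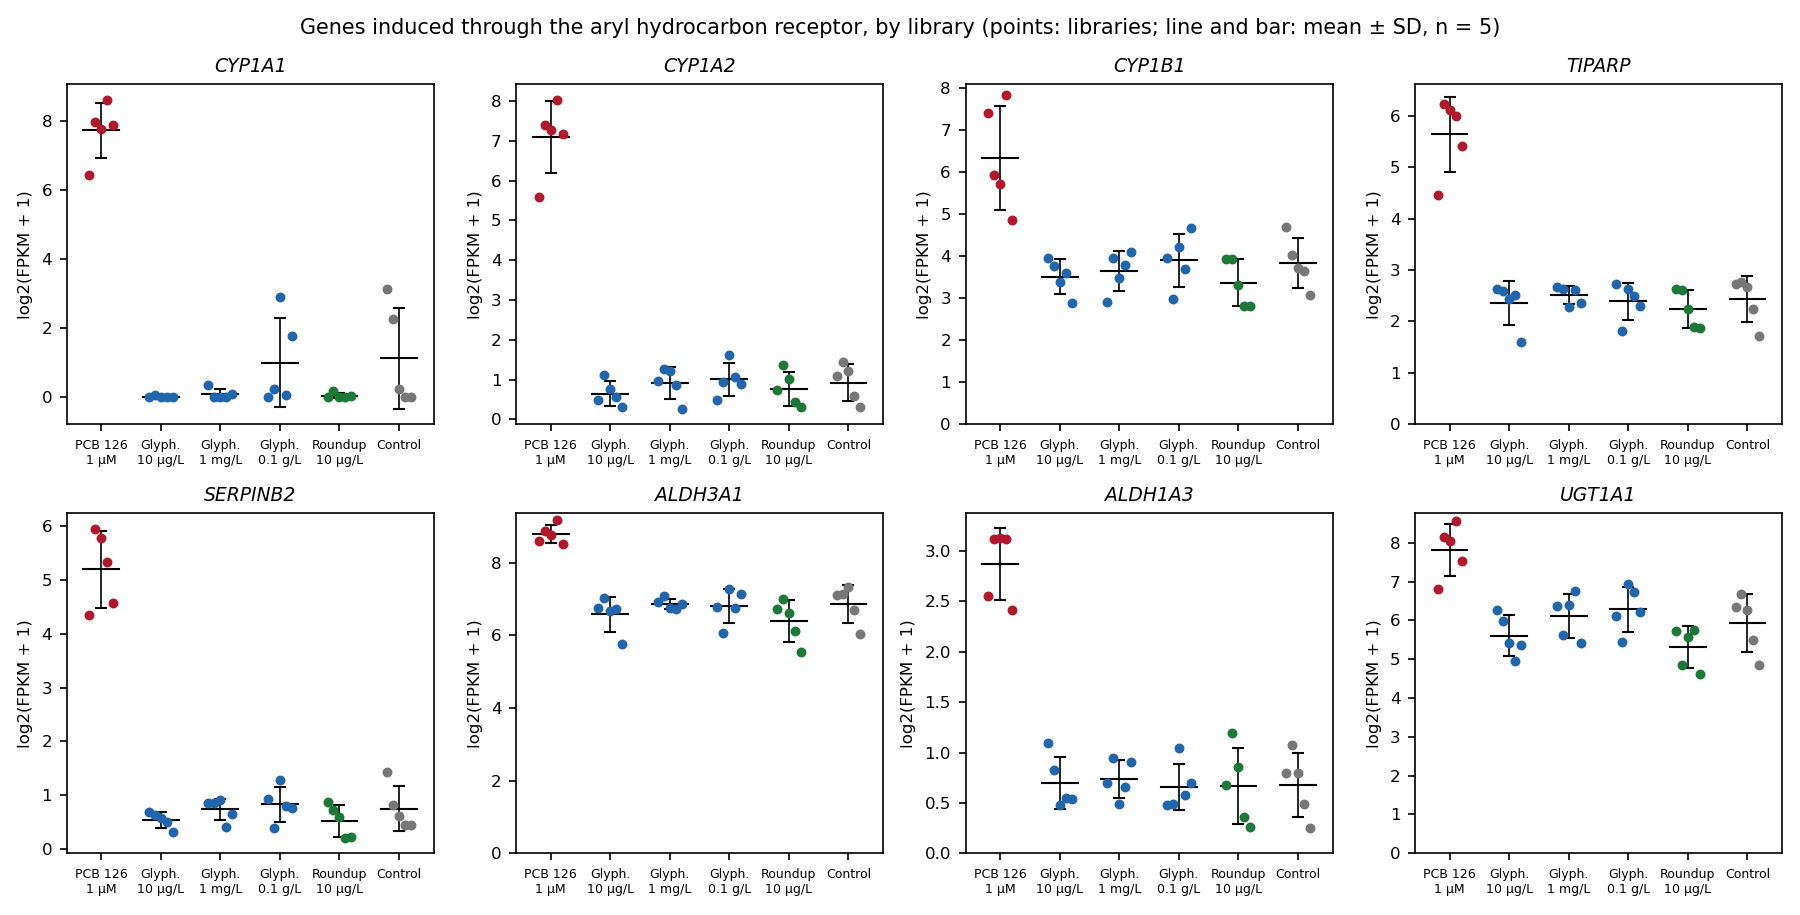
Log2(FPKM + 1) of 8 AhR-induced genes (y axes, each starting at or just below 0) in the PCB 126 1 µM group, the 4 herbicide groups and the solvent control (x axis). Points are libraries, and the line and bar are the mean ± SD of 5 libraries. For CYP1A1 the 5 PCB 126 libraries lie at 85.2 to 389 FPKM and no herbicide library exceeds 6.48 FPKM, and UGT1A1 is the 1 gene of the 8 whose groups overlap.

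The receptor and its partners did not pass. Of 10 listed genes 9 were tested and 0 were called (limma), with a median log2 fold change of -0.15 that turned to 0.10 after quantile normalization. AHR itself stood at 11.5, 63.0, 53.4, 54.5 and 36.2 FPKM against 37.0 to 84.5 FPKM (log2 fold change -0.72 ± 0.26, adjusted p = 0.0926), and ARNT at 3.21 to 8.13 against 3.29 to 9.00 FPKM (adjusted p = 0.731). Scaling by the 75th percentile called 2 of the 9 lower, where 2588 of all 9739 genes were lower. Quantile normalization called 1 lower, where 14.1% of all genes were, so both counts were near the share of all genes.

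Further genes with the largest increases lay outside the AhR list. These genes, and those with the largest decreases below, were picked from called genes without overlap, so their lack of overlap is no separate result. SLC37A2, a sugar-phosphate transporter of the endoplasmic reticulum (chr11:125063067-125090312, plus strand), stood at 34.6, 56.1, 52.1, 43.2 and 28.9 FPKM against 0.965 to 7.54 FPKM with a median of 2.32. STC2, the glycoprotein whose window is printed with those of the AhR genes, was at 9.92, 23.6, 22.2, 19.0 and 12.1 FPKM against 0.234 to 1.61 FPKM with a median of 0.589. Neither gene had an overlapping library, and their log2 fold changes were 3.69 ± 0.23 (adjusted p = 6.06e-13) and 3.43 ± 0.18 (adjusted p = 1.68e-14). STC2 passed the variance filter only through its values above the herbicide range.

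IL17RB, a receptor subunit for interleukin-25, gave 4.38, 25.6, 30.3, 21.5 and 11.6 FPKM against 0 to 2.13 FPKM, with 3 of 20 herbicide libraries at 0 (log2 fold change 3.33 ± 0.29, adjusted p = 1.41e-09). S100A8, the light subunit of calprotectin, was at 2.36, 8.74, 16.9, 10.7 and 6.62 FPKM against 0.0393 to 0.684 FPKM in the herbicide libraries (log2 fold change 2.75 ± 0.22, adjusted p = 2.49e-10). In both genes the lowest PCB 126 library was replicate 1, still above the reference. S100A8 passed the variance filter only through its PCB 126 values.

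CYB561A3, a lysosomal ferric reductase, reached 52.7 to 126 FPKM against 5.25 to 19.0 FPKM (log2 fold change 2.78 ± 0.23, adjusted p = 5.33e-10). SCG5, a chaperone of prohormone convertase 2, was at 27.8 to 60.2 against 4.15 to 13.7 FPKM (log2 fold change 2.46 ± 0.22, adjusted p = 1.48e-09). SLC2A1, the glucose transporter GLUT1, was at 28.9 to 55.0 against 3.43 to 12.7 FPKM (log2 fold change 2.18 ± 0.23, adjusted p = 4.58e-08). MB21D2, with 7.36 to 11.3 against 0.581 to 1.97 FPKM, had the tightest PCB 126 values of the group (9.32 ± 1.90 FPKM, SD, n = 5, log2 fold change 2.20 ± 0.17, adjusted p = 6.03e-11). MB21D2 passed the variance filter only through these values.

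Genes with the largest decreases included secreted and matrix proteins. APOA2 (chr1:161222292-161223631, minus strand) was at 0.948, 4.12, 3.22, 3.80 and 3.38 FPKM with PCB 126, while herbicide libraries held 21.2 to 69.5 FPKM with a median of 41.4. Its mean was 14.0 times lower (log2 fold change -3.42 ± 0.27, adjusted p = 1.89e-10). COL3A1 (chr2:188974320-189012746, plus strand) stood below 1 FPKM in all 5 PCB 126 libraries, at 0.826, 0.406, 0.345, 0.919 and 0.382, against 7.98 to 20.4 FPKM with a median of 14.0 (log2 fold change -3.24 ± 0.19, adjusted p = 1.41e-13). PCB_1uM replicate 1 was the lowest of the 5 for APOA2 but not for COL3A1.

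DEFB1, an epithelial antimicrobial peptide, was at 1.17 to 2.86 against 8.41 to 25.3 FPKM (log2 fold change -2.68 ± 0.21, adjusted p = 1.22e-10). CYP4F22, the omega-hydroxylase of ultra-long-chain fatty acids in skin ceramides, was at 0.309 to 0.796 against 4.27 to 12.1 FPKM (log2 fold change -2.51 ± 0.22, adjusted p = 1.32e-09). VSIG1, a junction protein of stomach epithelium, was at 0.115 to 0.901 against 4.59 to 10.1 FPKM. CA9, a carbonic anhydrase known as a hypoxia target, was at 3.32 to 6.29 against 13.8 to 36.3 FPKM. In these 4 genes replicate spread was small beside the distance between the groups.

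HSD17B6, a hydroxysteroid dehydrogenase of androgen catabolism, was listed at 0 in PCB_1uM replicate 1 and at 6.21, 6.13, 10.4 and 6.54 FPKM in the others, against 16.3 to 49.3 FPKM with a median of 34.7 (log2 fold change -2.66 ± 0.33, adjusted p = 1.34e-06). PTN, a heparin-binding growth factor, likewise stood at 0 in that library and at 6.06 to 9.31 FPKM in the others, against 10.9 to 34.8 FPKM. For both genes the other 4 libraries also lay below the whole herbicide range, as the choice of genes without overlap required.

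CAV1, the scaffold protein of caveolae, was at 10.9, 64.0, 66.2, 56.8 and 35.9 FPKM against 90.0 to 182 FPKM (log2 fold change -1.84 ± 0.26, adjusted p = 1.38e-05). PEG10, an imprinted gene derived from a retrotransposon, was at 3.65 and then 29.6 to 46.3 FPKM against 50.8 to 160.3 FPKM (log2 fold change -1.96 ± 0.34, adjusted p = 0.000223). HRG, a histidine-rich plasma glycoprotein, was at 8.67 to 42.4 against 73.0 to 199.7 FPKM. NRXN3, a neuronal adhesion protein, and KRT14, a basal keratin, stood at or below 0.272 and 0.347 FPKM with PCB 126, against 0.625 to 7.55 and 1.44 to 4.96 FPKM. AHSG was also among these genes and is described with the hepatocyte markers. The genes named here for the largest increases and decreases kept their call without each library in turn and under each of the other settings tried.

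**Figure D3:**
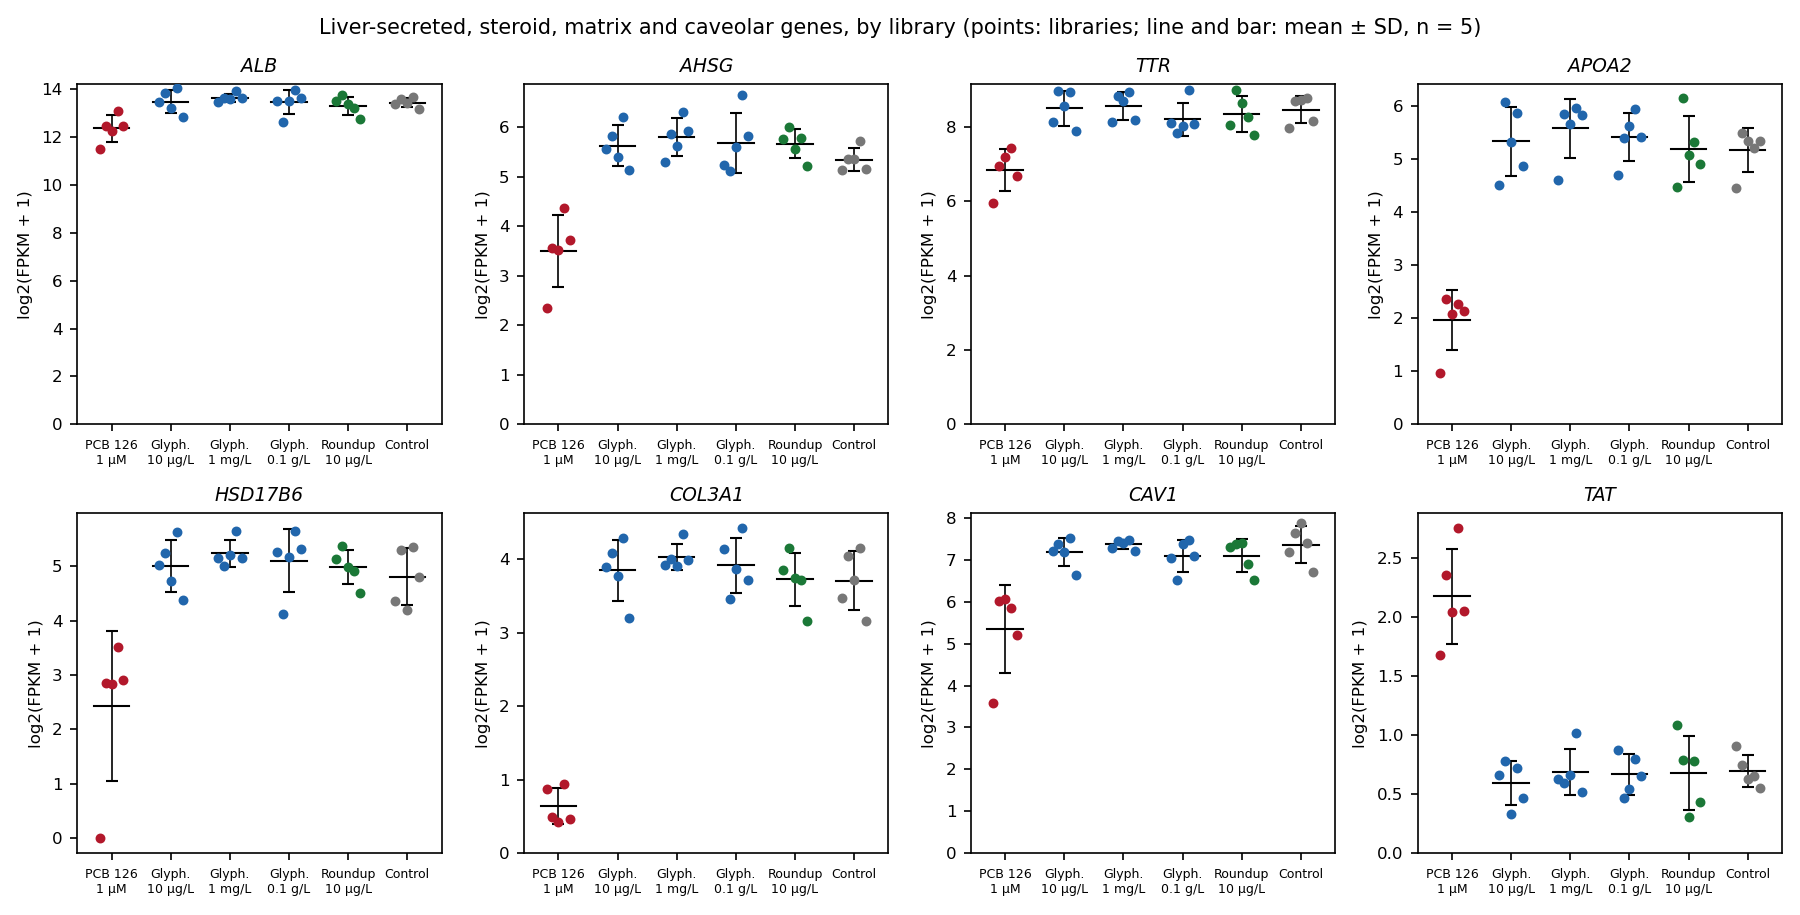
Log2(FPKM + 1) (y axes) of 7 genes that fell and of TAT, which rose, in the PCB 126 1 µM group, the 4 herbicide groups and the solvent control (x axis). Points are libraries, and the line and bar are the mean ± SD of 5 libraries. COL3A1 lies below 1 FPKM in all 5 PCB 126 libraries and at 7.98 FPKM or more in the herbicide libraries, and the lowest PCB 126 point of APOA2, HSD17B6 and CAV1 is replicate 1.

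ALB, AHSG and TTR, plasma proteins made by hepatocytes, fell, and TAT rose. Of 12 hepatocyte markers 7 fell and 1 rose, where 6.63% and 1.57% of all genes did. Their median log2 fold change was -1.07, beside -0.23 for all genes. ALB, serum albumin, was at 2922, 5571, 4925, 8721 and 5713 FPKM against 6315, 11724 and 17154 FPKM as lowest, median and highest (log2 fold change -1.11 ± 0.22, adjusted p = 0.00143). AHSG, the fetuin that inhibits calcification, was at 4.12, 10.9, 10.5, 19.6 and 12.3 FPKM against 33.9 to 99.6 FPKM (log2 fold change -2.19 ± 0.25, adjusted p = 2.61e-07). TTR, which carries thyroxine and retinol-binding protein, was at 61.0 to 172 against 219.8 to 507 FPKM. For AHSG and TTR the groups did not overlap, and for ALB 4 of 5 PCB 126 libraries were below the lowest herbicide library.

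TF, FGB, CPS1 and APOH also fell. TAT, the tyrosine aminotransferase induced by glucocorticoids, went the other way: it stood at 2.20, 4.11, 3.12, 5.74 and 3.14 FPKM against 0.237 to 1.12 FPKM (log2 fold change 1.52 ± 0.17, adjusted p = 2.5e-07). SERPINA1 (1545 to 2934 against 2245 to 5361 FPKM, adjusted p = 0.0921), ASGR1 and HNF4A (20.2 to 42.0 against 8.61 to 22.8 FPKM, adjusted p = 0.138) did not pass. The 7 decreases remained called without each library in turn and after quantile normalization, where the list median was -0.77.

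Acute-phase, complement and coagulation proteins gave 14 lower and 0 higher of 30 tested, with a median of -0.90, where 6.63% of all genes were lower. SERPINC1, antithrombin, was at 4.25 to 14.9 against 16.3 to 48.6 FPKM (log2 fold change -1.77 ± 0.24, adjusted p = 6.5e-06). HPX, the heme scavenger hemopexin, was at 59.4 to 109.8 against 122 to 407 FPKM. C5 and C8B also had groups that did not overlap, as had CRP, where the herbicide libraries themselves spread from 8.46 to 134 FPKM. Without PCB_1uM replicate 1 the list had 7 lower of 30, and CRP was not among them (adjusted p = 0.114).

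Apolipoproteins gave 4 lower and 0 higher of 8 tested (median -0.95), where 6.63% of all genes were lower. Beside APOA2 the lower ones were APOC1, APOE and APOH. APOE, the ligand of lipoprotein receptors on remnants, was at 263 to 828 against 556 to 1353 FPKM (log2 fold change -1.23 ± 0.24, adjusted p = 0.000936). Of 18 hepatocyte transcription factors tested 3 fell, where 6.63% of all genes did. They were FOXA1 at 1.02 to 3.95 FPKM against a herbicide median of 8.19 FPKM, FOXA3 at 4.08 to 6.52 against 6.88 to 17.8 FPKM, and CEBPA. Their adjusted p were 0.000131, 0.00132 and 0.0266 (limma). FOXA1 and FOXA3, pioneer factors that open liver enhancers, had no overlapping library.

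**Figure D4:**
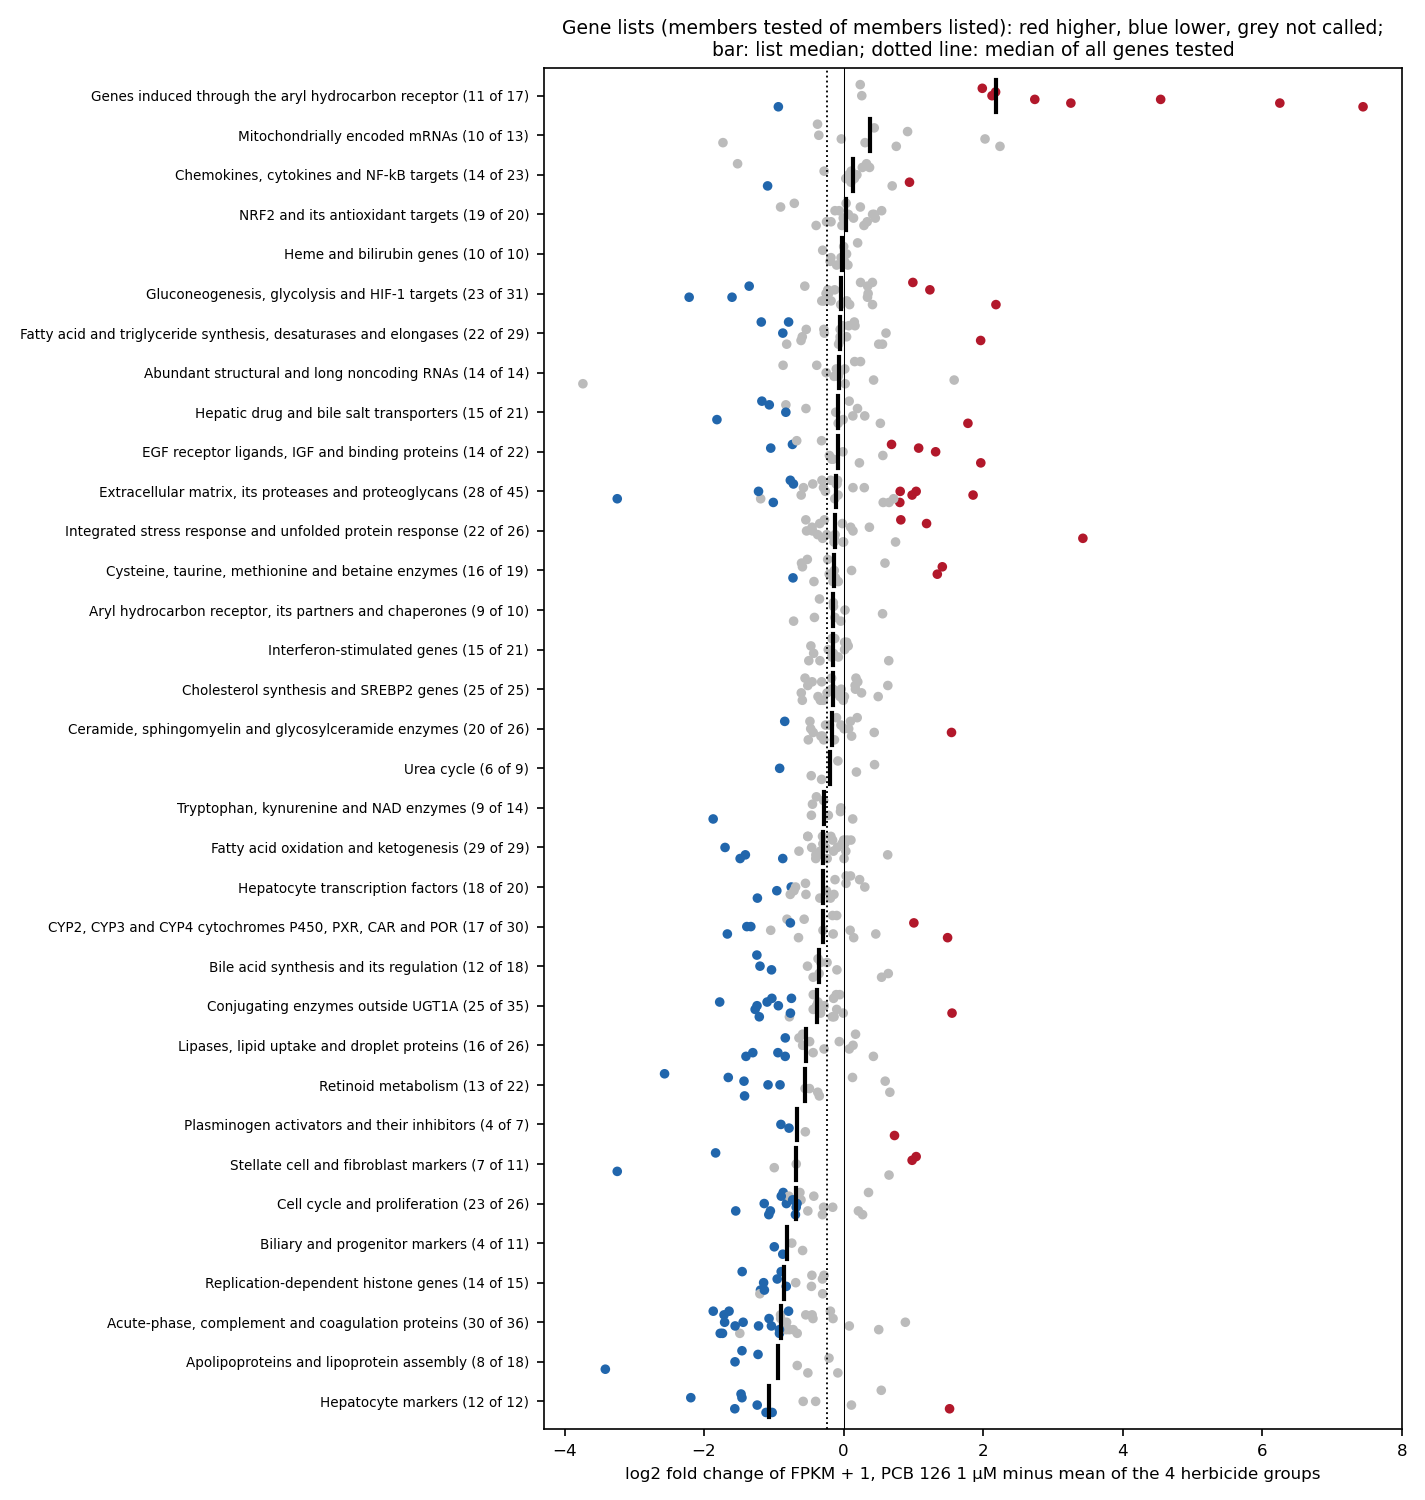
Log2 fold change (x axis) of each tested member of 34 gene lists with 4 or more tested members (y axis, with members tested of members listed). Red points are called higher, blue points called lower, grey points not called, black bars are list medians and the dotted line is the median of all genes tested, -0.23. AhR-induced genes have the highest median of tested members (2.18, without the members that failed the variance filter) and hepatocyte markers the lowest (-1.07).

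In foreign-compound metabolism outside the CYP1 family the changes went both ways. Of 17 genes of the CYP2, CYP3 and CYP4 families and their regulators 2 rose and 4 fell (median -0.30). Over all genes 1.57% rose and 6.63% fell. CYP2B6, known as a target of CAR and PXR, was at 1.44, 9.07, 11.7, 11.6 and 6.58 FPKM against 0.281 to 4.55 FPKM (log2 fold change 1.49 ± 0.33, adjusted p = 0.00323), and CYP2C19 rose by 1.01 ± 0.30 (adjusted p = 0.0354), a call lost without any 1 of PCB_1uM replicates 2 to 5 (adjusted p up to 0.107). CYP2C8, a paclitaxel hydroxylase, fell: it was at 2.79 to 13.7 FPKM with a median of 10.5 FPKM against 14.6 to 47.1 FPKM (log2 fold change -1.67 ± 0.27, adjusted p = 7.65e-05). CYP2C18, CYP4A11 and CYP4F2 fell as well. Close paralogs in the CYP2C and CYP4F clusters may share reads.

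Conjugating enzymes outside the UGT1A locus gave 9 lower and 1 higher of 25 tested (median -0.39), where 6.63% and 1.57% of all genes were. UGT2B11 and UGT2B7, which glucuronidate steroids and drugs, had groups that did not overlap, at 0.183 to 2.19 against 4.44 to 11.2 FPKM and at 2.40 to 7.80 against 8.04 to 24.6 FPKM. UGT2A3, UGT2B10, UGT2B15, SULT1C2, GSTA1, GSTA2 and GSTA4 fell too, and these families are also near-identical in part. NNMT, which methylates nicotinamide, rose by 1.55 ± 0.34 (adjusted p = 0.00292), a call lost without the 6 multiply aligned libraries (adjusted p = 0.0671). Without PCB_1uM replicate 1 the count was 4 lower and 1 higher, where 2.71% and 1.72% of all genes were.

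Among drug and bile salt transporters 1 of 15 rose and 4 fell, where 1.57% of all genes rose and 6.63% fell. The list median of -0.08 turned to 0.08 after quantile normalization. ABCG2, the efflux pump BCRP, was at 2.31, 6.78, 6.16, 4.92 and 2.10 FPKM against 0 to 2.20 FPKM with a median of 0.427 (log2 fold change 1.78 ± 0.25, adjusted p = 1.4e-05). SLCO1B1, the hepatic uptake carrier of bilirubin and statins, was at 0.712 to 7.17 against 7.01 to 25.3 FPKM (log2 fold change -1.82 ± 0.26, adjusted p = 1.35e-05). SLC22A7 and SLC22A9, organic anion transporters, fell.

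Lipid genes that changed were mostly lower, as were called genes of all kinds (646 of 799). Of 29 genes of fatty acid oxidation and ketogenesis 4 fell and 0 rose, where 6.63% of all genes fell. The list median was -0.29, beside -0.23 for all genes, and -0.07 after quantile normalization. The 4 included PPARGC1A, a coactivator of mitochondrial genes (0.621 to 2.16 against 2.21 to 9.88 FPKM, adjusted p = 0.000118), ACSL4 and PDK4. Of 22 genes of fatty acid and triglyceride synthesis 1 rose and 3 fell, and the list median of -0.05 turned to 0.11 after quantile normalization. GPAM, the first enzyme of glycerolipid synthesis, rose: it was at 8.00, 7.14, 5.29, 5.75 and 7.65 FPKM against 0.193 to 3.73 FPKM (log2 fold change 1.96 ± 0.26, adjusted p = 3.64e-06). SCD, ELOVL2 and DGAT2 fell, of which ELOVL2 alone was still called without PCB_1uM replicate 1.

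Lipases and droplet proteins gave 5 lower and 0 higher of 16 tested (median -0.54), among them LPL, LIPC, MGLL and G0S2. Without PCB_1uM replicate 1 the count was 3 lower, with LIPC and MGLL lost. Bile acid synthesis gave 3 lower and 0 higher of 12 (median -0.36), namely NR1H4, the bile acid receptor FXR, BAAT, which conjugates bile acids, and CYP7B1, whose change of -1.03 became -0.45 without PCB_1uM replicate 1 (adjusted p = 0.404) and whose call was lost without any 1 of 10 libraries. None of 25 cholesterol synthesis genes passed (median -0.15), and quantile normalization called 4 higher and 3 lower, near the 11.1% and 14.1% of all genes under that scaling, and turned the median to 0.06. In ceramide metabolism 1 of 20 rose and 1 fell. UGCG, glucosylceramide synthase, was at 35.5, 84.8, 78.0, 73.3 and 47.4 FPKM against 10.7 to 29.4 FPKM (log2 fold change 1.55 ± 0.23, adjusted p = 2.45e-05).

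Retinoid genes gave 6 lower and 0 higher of 13 tested (median -0.55), where 6.63% of all genes were lower. ADH1C, ADH1B, ADH1A and ADH4, alcohol dehydrogenases that also oxidize retinol, fell by 2.57, 1.65, 1.43 and 1.42 on the log2 scale, and RDH16, a retinol dehydrogenase, was at 0.167 to 0.494 against 0.598 to 3.90 FPKM. RARA, a retinoic acid receptor, fell by 0.91 (adjusted p = 0.0044). The class 1 alcohol dehydrogenases share most of their sequence, and ADH1C was listed at 0 in PCB_1uM replicate 1. All 6 remained called without that library.

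Extracellular matrix genes were divided, with 5 of 28 higher and 5 lower, where 1.57% and 6.63% of all genes were. The list median was -0.12, and 0.05 after quantile normalization. CEMIP, a hyaluronan-degrading protein, rose from 5.79 to 24.8 FPKM in the herbicide libraries to 32.1, 67.9, 58.2, 61.6 and 35.0 FPKM (log2 fold change 1.86 ± 0.25, adjusted p = 6.69e-06), and LUM, DCN, FBLN1 and MMP2 also rose. CEMIP and DCN were called without each library in turn, whereas LUM, MMP2 and FBLN1 were not called without any 1 of 3, 2 and 14 libraries. COL3A1, GPC6, TIMP1, TIMP2 and SPARC fell, and the latter 3 were not called without PCB_1uM replicate 1. Among stellate cell and fibroblast markers 2 of 7 rose (LUM and DCN) and 2 fell (COL3A1 and POSTN), so the list did not move one way. KRT19 and SPP1, of 4 biliary markers tested, fell by 0.87 ± 0.22 and 0.99 ± 0.21 on the log2 scale (adjusted p = 0.00957 and 0.00277), and the call of KRT19 was lost without PCB_1uM replicate 5 (adjusted p = 0.0767).

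Of 14 growth factor genes tested 4 rose and 2 fell (median -0.08, and 0.08 after quantile normalization). Those that rose were IGFBP1 and the EGF receptor ligands AREG, EREG and TGFA, while other ligands on the list did not pass the variance filter. AREG was at 2.47, 3.89, 3.91, 4.59 and 2.78 FPKM against 0.572 to 1.58 FPKM (log2 fold change 1.08 ± 0.17, adjusted p = 3.76e-05). AREG and EREG passed the variance filter only through their PCB_1uM values. EREG was at 1.13 in PCB_1uM replicate 1 and at 4.29 to 7.29 FPKM in the others, against 0.456 to 1.92 FPKM (adjusted p = 0.000124), and TGFA rose by 0.69 (adjusted p = 0.0272), a call lost without PCB_1uM replicate 1 (adjusted p = 0.056). IGFBP1, the hepatic binding protein that responds to insulin and stress, was at 41.4, 186, 129.5, 227 and 96.2 FPKM against 13.9 to 45.1 FPKM (log2 fold change 1.97 ± 0.29, adjusted p = 2.01e-05), while IGFBP6 and IGFBP7 fell.

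Cell cycle genes gave 12 lower and 0 higher of 23 tested (median -0.68), beside 6.63% lower over all genes, but without PCB_1uM replicate 1 the count was 4 lower, beside 2.71% over all genes. TOP2A, topoisomerase 2 of dividing cells, was at 5.86 to 16.7 against 13.9 to 34.1 FPKM (log2 fold change -1.05 ± 0.21, adjusted p = 0.0014), and CCNA2, cyclin A2, at 1.04 to 4.35 against 4.03 to 9.99 FPKM. After quantile normalization 16 genes were lower and 3 higher, where 14.1% and 11.1% of all genes were. Replication-dependent histone genes gave 7 lower and 0 higher of 14 (median -0.86), with HIST1H2AB at 4.71 to 10.2 against 10.9 to 30.9 FPKM. Copies of a histone type are alike in sequence, so single members are uncertain.

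Genes of glucose use and the HIF-1 pathway gave 3 higher and 3 lower of 23. Beside SLC2A1, HK2 (hexokinase 2) was at 4.15, 6.60, 5.57, 0.287 and 3.69 FPKM against 0.328 to 1.71 FPKM, so that 1 PCB 126 library lay below the reference and 4 above it. PFKFB3, which makes fructose 2,6-bisphosphate, was lower at 5.55 to 9.39 against 11.6 to 32.0 FPKM (log2 fold change -1.35 ± 0.20, adjusted p = 1.84e-05), as was CA9, and ADM rose. HK2 was not called without the 6 multiply aligned libraries (adjusted p = 0.0568), and it passed the variance filter only through its PCB 126 values. Of 22 stress response genes STC2, GDF15 and PPP1R15A rose and 0 fell (median -0.13, and 0.14 after quantile normalization), with STC2 the 1 still called of the 3 without PCB_1uM replicate 1. Of 16 genes of sulfur amino acid and betaine metabolism CTH and CHDH rose and 1 gene fell: CTH, cystathionine gamma-lyase, was at 4.95, 15.4, 14.1, 14.5 and 9.11 FPKM against a herbicide median of 3.73 and highest value of 5.38 FPKM (log2 fold change 1.41 ± 0.23, adjusted p = 9.51e-05).

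Smaller lists gave few calls. PLG and SERPINF2 fell among 4 plasminogen genes, IL32 rose and IL18 fell among 14 inflammatory genes, TDO2 fell among 9 tryptophan genes and ARG1 among 6 urea cycle genes. Without PCB_1uM replicate 1 the calls of SERPINF2, IL32, TDO2 and ARG1 were lost, as was that of CERS4, the ceramide synthase that fell. None of 19 NRF2 targets, 15 interferon-stimulated genes, 10 heme genes, 10 mitochondrially encoded mRNAs or 14 structural RNAs passed (limma). The NRF2 list had 2 higher without PCB_1uM replicate 1, where 1.72% of all genes were higher. It had 4 higher and 2 lower after scaling by the 75th percentile, where 444 and 2588 of all 9739 genes were. After quantile normalization it had 7 higher and 1 lower, where 11.1% and 14.1% of all genes were.

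The leading AhR genes were called against each herbicide group. Against single groups 284 genes were called for glyphosate at 10 µg/L (2.92% of the genes tested), 626 at 1 mg/L (6.43%), 272 at 0.1 g/L (2.79%) and 245 for Roundup (2.52%). In 183 genes (1.88%) all 4 contrasts passed with 1 sign, 68 higher (0.698%) and 115 lower (1.18%). The split of calls differed between groups: 77 higher and 549 lower against glyphosate at 1 mg/L, but 115 higher and 130 lower against Roundup. Without the glyphosate 1 mg/L group the pooled comparison called 125 genes higher and 283 lower. CYP1A2 ranged from 6.09 to 6.44 across the 4 groups, TIPARP from 3.12 to 3.38, ALDH1A3 from 2.13 to 2.21, APOA2 from -3.62 to -3.22 and COL3A1 from -3.40 to -3.09, each called in all 4.

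Differences among the herbicide groups were not detected with 5 libraries each. The F-test over the 4 groups called 0 of 9739 genes (limma), with 102 at an unadjusted p under 0.05 (1.05%). The mean of the 4 groups against Control called 0 genes, with 76 at an unadjusted p under 0.05 (0.78%) and a median log2 fold change of -0.02. Since PCB_1uM cancels, this is also the test of whether PCB 126 differs more from herbicides than from the solvent control. CYP1A1 was at 7.69 and 3.76 FPKM in Control replicates 1 and 2 and at 0.175, 0 and 0 in the others, and herbicide minus Control was -0.84 ± 0.39 (SE, adjusted p = 1). For CYP1A2 that difference was -0.09 ± 0.25, for SERPINB2 -0.09 ± 0.21 and for TIPARP -0.05 ± 0.23.

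Side by side, PCB_1uM against Control, which shares the 5 PCB 126 libraries and so is no separate evidence, called 272 genes (2.79%), 79 higher and 193 lower. The log2 fold changes there were 6.61 for CYP1A1, 6.16 for CYP1A2, 4.45 for SERPINB2, 3.21 for TIPARP, -3.20 for APOA2 and -3.07 for COL3A1.

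PCB 126 at 10 nM against Control used 15 libraries with the 100 pM group in the fit, of which none was in the comparison with the herbicides. Of the 153 genes called higher with 1 µM, 148 had a log2 fold change above 0 there (96.7%, against 16.6% of all genes tested), and 70 did so at an unadjusted p under 0.05 (45.8%, against 1.17%). Of the 646 called lower 617 were below 0 (95.5%, against 83.3%), and 186 at an unadjusted p under 0.05 (28.8%, against 4.55%). All 58 higher and 82 lower genes without overlap had the same sign at 10 nM. The background was lopsided at 10 nM as well, with a median of -0.20 over all genes, so the sign of the lower genes says little. Their median was -0.46, and that of the higher genes 0.58. PCB_10nM replicate 5 had the fewest transcripts above 0 of the series (71169). It, PCB_10nM replicate 3 and Control replicate 5 were also among the libraries with many read pairs aligned more than once. Their part in the size of the lower genes was not tested.

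At an adjusted p under 0.05 the 10 nM fit called 18 genes (0.185%), and all 18 were also called at 1 µM with the same sign, 15 higher and 3 lower. CYP1A1 was at 92.1 to 377 FPKM with 10 nM against 85.2 to 389 FPKM with 1 µM, and CYP1A2 at 78.2 to 398 against 47.1 to 259.8 FPKM, so for these genes the 2 doses gave overlapping levels. SERPINB2 was at 3.58 to 29.6 FPKM at 10 nM, STC2 at 2.81 to 12.7 and IL17RB at 1.62 to 12.8, with log2 fold changes of 2.96, 2.25 and 1.86 against Control, of which IL17RB missed the threshold (adjusted p = 0.0595). Among the lower genes called at 10 nM, KRT14 had -1.65 (adjusted p = 0.0192). COL3A1, at 0.312 to 8.06 FPKM and -1.87, had an adjusted p of 0.058 there, and APOA2 was at 5.06 to 38.2 FPKM with -1.38 and an adjusted p of 0.359.

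**Figure D5:**
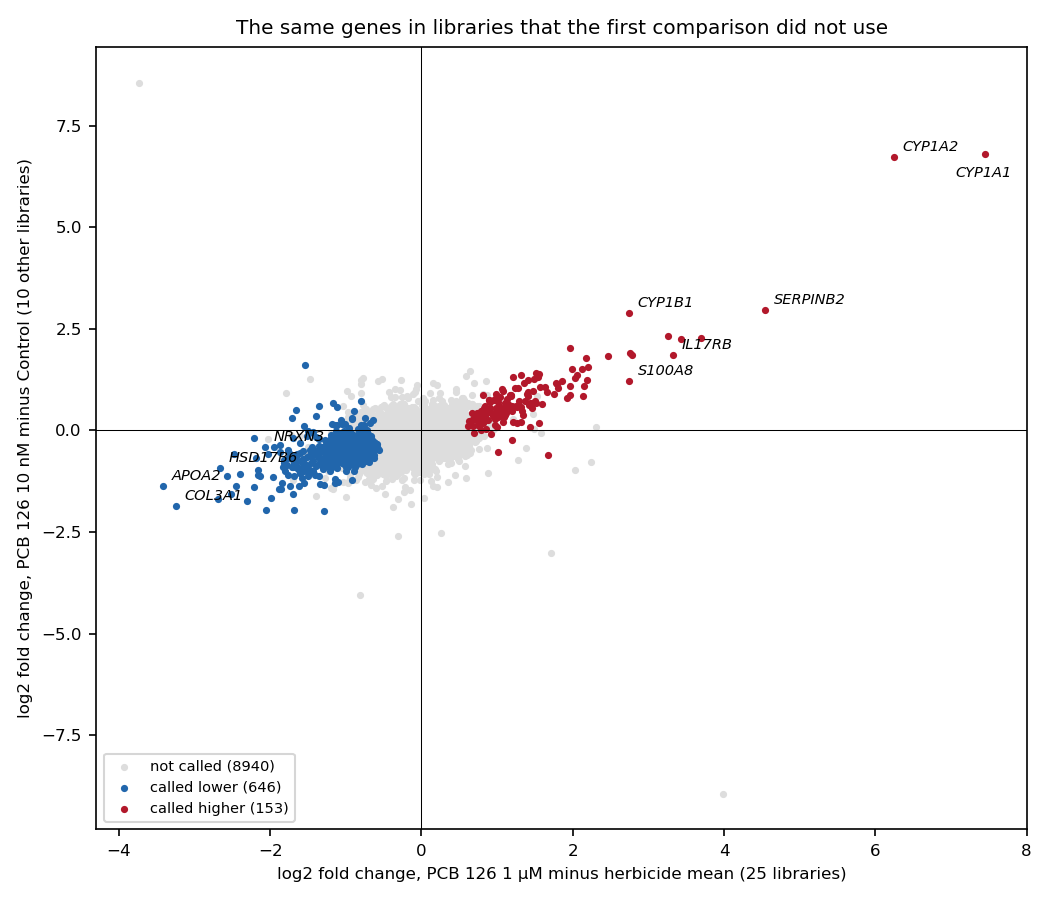
Log2 fold change of each gene with PCB 126 at 1 µM against the herbicide mean (x axis, 25 libraries) and with PCB 126 at 10 nM against Control (y axis, 10 other libraries). Red and blue points are the 153 and 646 genes called higher and lower in the first comparison, grey points are not called. CYP1A1 and CYP1A2 lie at the top right, with 6.80 and 6.73 at 10 nM, and most blue points lie below 0 as do most grey ones.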

How the data were processed

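Total RNA of differentiated HepaRG cells was sequenced by the study after ribosomal RNA depletion. The submitters' processing notes name HISAT, HISAT2, StringTie and GRCh38, with no versions. The authors deposited FPKM per transcript in 2 tables, one for PCB 126 and one for the herbicides, both with the same 5 controls. Columns with a value just below 0 (6 such values in one deposited table, 4 in the other) were recorded as a score and the values set to 0; otherwise they hold FPKM like the rest. The 234960 transcripts were joined by name and summed over 56568 gene names, leaving out 35782 transcripts without one. StringTie shares reads between transcripts by estimate, so paralogs and overlapping genes are uncertain. FPKM are not counts, so no count model was used, and the 2 tables were taken to be on 1 scale because the 5 controls had identical values in both.

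Genes with a variance of FPKM above 1 over the 25 libraries were tested on log2(FPKM + 1), with a pseudocount of 1, in limma 3.58.1 (R 4.3.3) with Benjamini-Hochberg adjustment over 9739 genes and a threshold of 0.05. Each herbicide group had its own mean. Single genes were also tested by an exact permutation test, 2-sided. The script was tested on simulated data. Named genes were all AhR-induced genes, the 15 with the largest increase and the 15 with the largest decrease among called genes without overlap, with a mean of at least 1 FPKM in the higher group and on 1 chromosome, and up to 6 called members of each other list, with further called members listed by name. The 36 gene lists, their members and the comparison were chosen with earlier results of these data known. Some genes that these rules select are not reported here. Fold changes and p-values of the study were not used. Figures were drawn with matplotlib 3.10.9.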

Additional observations from a re-analysis of the deposited data

Results flagged for a closer look

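In each group of 5 libraries the gap between the highest or lowest value and its neighbour was divided by the range of the group, and a share above 0.71 was taken as standing apart, which chance gives in about 1 in 20 groups. Of 54 groups of values looked at, 8 passed, the genes among them on the log2(FPKM + 1) scale. Of these, 6 were genes that fell and had their lowest value in PCB_1uM replicate 1: APOA2 (0.948 FPKM), HSD17B6 (listed at 0), VSIG1 (0.115), PTN (listed at 0), PEG10 (3.65) and HRG (8.67). None of the AhR-induced genes was among them. NRXN3 stood apart upward in PCB_1uM replicate 3, at 0.272 FPKM. The share of FPKM in transcripts without a gene name stood apart in Glyphosate_10ug/L replicate 5, at 27.5% of the library.

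PCB_1uM replicate 1 also had the fewest transcripts above 0 of the 25 libraries (75785), and its part in the values of these genes was not tested. All 6 genes had been picked from called genes without overlap, so their other 4 PCB 126 libraries lay below the herbicide range by that choice. All 6 kept their call without PCB_1uM replicate 1. For APOA2, replicate 1 was also the lowest library of each herbicide group and of Control. That rank was therefore not peculiar to the PCB 126 group for this gene.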

How the results depend on the processing

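The 799 calls became 3032 after scaling by the 75th percentile (444 higher, 2588 lower), 2457 after quantile normalization (1079 higher, 1378 lower) and 1336 with array weights (377 higher). In the plain linear model with a covariate for the overall level of each library they became 2118 (1197 higher). They became 408 (283 lower) without the Glyphosate_1mg/L group. Without a filter 361 genes were higher. Without the 6 of 25 libraries in which the study's alignment summary lists the largest shares of read pairs aligned more than once (PCB_1uM replicates 1 and 5, Glyphosate_0.1g/L replicate 2, Glyphosate_10ug/L replicate 5, Roundup_10ug/L replicates 4 and 5), 276 were higher and 398 were called against all 4 groups, which were 977 and 1057 under the 2 scalings. The mean herbicide contrast with Control called 1 gene without a filter (AC074375.1), and 1 (RACGAP1, higher with herbicides) under either scaling, with array weights, for the most abundant transcript and without Control replicate 2, and the F-test called 1 (APEH) with array weights. The 18 genes shared with 10 nM became 0 without a filter, 77 and 203 under the scalings, 142 with array weights, 40 without the same kind of libraries and 50 with the replicate block. UGT1A6 turned to -0.29 without the 6 libraries and to -0.076 for its most abundant transcript. The cause of these shifts was not tested.

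Leaving out 1 library in turn gave 423 to 1175 calls, 115 to 166 higher and 259 to 1009 lower, 146 to 238 in all 4 contrasts, 0 to 0 in the F-test, 0 to 1 against Control, and 12 to 45 shared with 10 nM, the highest without PCB_10nM replicate 3 and 30 without replicate 4. The fewest calls came without PCB_1uM replicate 1 (423) and replicate 5 (483). Replicate numbers follow accession order, and each number takes a run of 8 consecutive library numbers in the titles with 1 library of each treatment. No label says what such a run shares, so the samples were not treated as paired in the main fit. APOA2 and AHSG levels nevertheless followed the run in most groups. APOA2 was lowest in replicate 1 in each herbicide group (21.2 to 25.03 FPKM) and in Control (20.8). The same held in PCB_100pM (14.8) and PCB_1uM (0.948), but not in PCB_10nM. AHSG was highest in replicate 4 in every group but Roundup_10ug/L. Deviations of PCB_1uM libraries correlated with the mean of same-numbered herbicide libraries at 0.00772 to 0.226. Single pairs among the PCB_1uM and herbicide libraries of the same number, herbicide pairs included, gave correlations from -0.167 to 0.362. With the replicate block 983 genes were called, 185 higher and 798 lower, and calls went from 272 to 471 for PCB_1uM against Control and from 18 to 56 at 10 nM. Over the AhR-induced genes and the 30 largest, 656 values under other settings kept direction and side of the threshold and 9 did not, which concerned GSTA1, NFE2L2 and UGT1A6. The list counts without PCB_1uM replicate 1, without the 6 libraries and under scaling were chosen after seeing the data. Depth is not known from FPKM, and 5 libraries limit the precision.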
